A study of Homo sapiens with 21 samples.

Results

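The per- and polyfluoroalkyl substances (PFAS) of the series were pooled and set against control: the 18 of 21 libraries from cells exposed to PFOA, PFOS, PFDA, PFDS, 8:2 FTS or 8:2 FTOH, each compound with the same weight, were compared with the 3 control libraries, and the genes were asked for that moved the same way in all 6 compounds. The cells were SH-SY5Y, a human neuroblastoma line that can be turned into neuron-like cells, with a wild-type genotype in all 7 groups. All had gone through 11 days of differentiation, and each of the 6 compound groups then had 24 h with its PFAS at 30 µM, in treatment solutions with 1% methanol, as 3 libraries. The sources used here do not say how much methanol the controls had. If the controls had less, a change shared by all 6 compounds cannot be told apart from a change with methanol. The sources also do not say whether the 3 libraries of a group came from separate cultures. The p-values set differences against the spread between these libraries, which may be technical, so they may not extend to new cultures. The series describes the concentrations as below toxicity and asks about neurotoxic effects.

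PFAS are chains of carbon whose hydrogens are replaced by fluorine, with a polar end, which makes them persistent and surface active. Among carboxylic acids PFOA has the shorter and PFDA the longer fluorinated chain, and among sulfonic acids PFOS the shorter and PFDS the longer. In 8:2 FTS and 8:2 FTOH, the fluorotelomers, a short stretch that carries hydrogen links the fluorinated chain to a sulfonic acid or to an alcohol. Background on the gene groups described first is as follows. Immediate early genes such as EGR1 and FOS are switched on within minutes by growth factors, calcium and synaptic activity, without new protein synthesis. SLC7A11 is the transport subunit of the cystine and glutamate exchanger that feeds glutathione synthesis. Cholesterol enzymes are controlled together by the sterol-sensing factor SREBP2, and cytosolic chaperones by the heat shock factor HSF1.

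Depth differed between the sides: the control libraries had 22179910 to 24905803 counts and the compound libraries 7680024 to 30429746, with 13 of the 18 below the lowest control. The mean totals, 17330000 and 23190000, differed without passing a test (exact permutation test, two-sided p = 0.176), and so did the share of counts on the mitochondrial chromosome, 4.07 ± 0.75% (SD, n = 18) and 4.94 ± 1.2% (SD, n = 3; exact permutation test, two-sided p = 0.137). Control replicate 3, at 6.33%, had the highest such share and 8:2 FTOH replicate 3, at 6.11%, the highest among compound libraries. The labelled cell type was checked against its markers: all 12 neuronal markers were detected, at a summed level of 5139 to 5464 CPM (counts scaled to a common library size) in controls and 4476 to 5325 in compound libraries, and all 8 noradrenergic markers, at 3195 to 3540 and 2885 to 3865. Among the noradrenergic markers TH was near the floor, at 0.48 to 0.76 CPM in controls and 0 in PFOA replicate 1. Markers of the mesenchymal neuroblastoma state summed to 428.8 to 472.2 CPM in controls and 384.5 to 480.9 in compound libraries. Markers of glial cells summed to at most 17.6 CPM and of immune cells to at most 5.48 CPM in any library, and OLIG2 and CD3E had 0 counts in all 21. Fibroblast markers summed to 86.2 to 97.4 CPM in controls and 62.5 to 97.1 in compound libraries.

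Of 24879 genes tested, 87 passed an adjusted p of 0.05 in the pooled comparison, or 0.35%, with edgeR's quasi-likelihood test and Benjamini-Hochberg adjustment over all genes. At an unadjusted p under 0.05 it was 2482 (9.98%). Of the 87, 11 rose (0.0442%) and 76 fell (0.305%), so that 12.6% were higher; scaled by library size alone, 54 passed, 21 higher and 33 lower (38.9% higher), and DESeq2 called 196, 59 higher and 137 lower. All 87 moved in 1 direction in all 6 compounds. That holds for 8583 of all genes tested (34.5%), 4427 of them positive (17.8%) and 4156 negative (16.7%), and the 6 comparisons share the same 3 control libraries, so a common sign is not 6 separate results. The changes were small: the median size on the log2 scale was 0.34 over the 87 genes, 67 of them lay below 0.5 and 8 beyond 1. The genes that fell had a median of -0.34 and were abundant, with a median level of 60 CPM against 6.32 CPM over all genes tested. Of the 87, 72 encode proteins, 4 of which rose and 68 fell. Without any model, 117 genes (0.47%) had all 18 compound libraries outside the range of the 3 controls, 32 above (0.129%) and 85 below (0.342%). Among the genes that passed, 3 lay above and 29 below in this way.

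**Figure D1:**
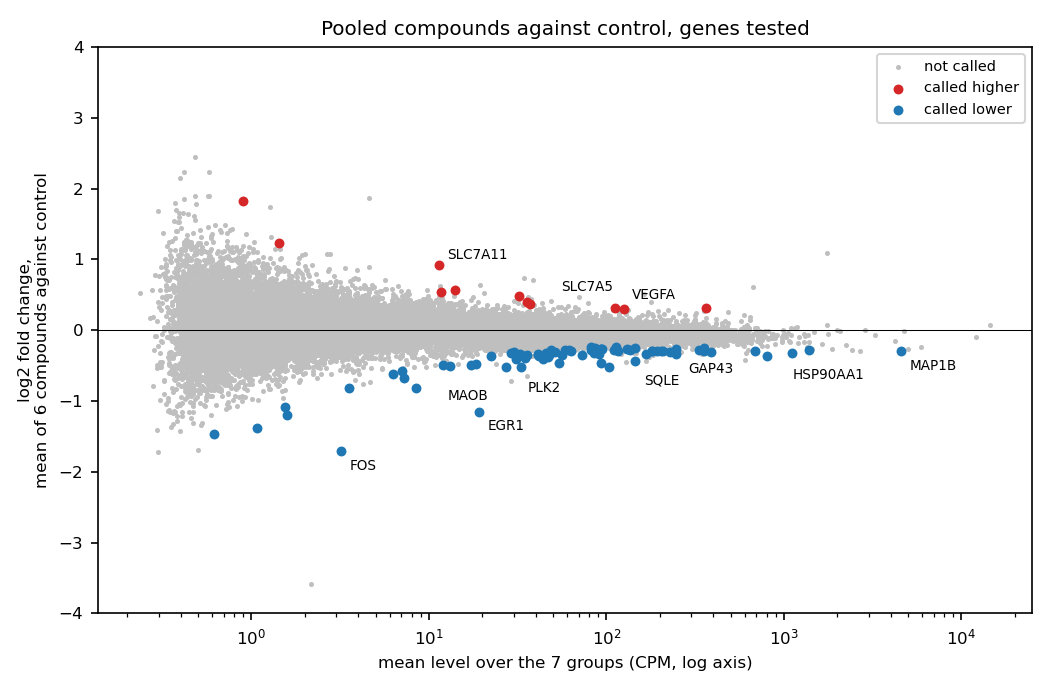
Each point is 1 of the 24879 genes tested, with its mean level over the 7 groups in CPM (log axis) across and the log2 fold change of the 6 compounds against control upward; red and blue points passed an adjusted p of 0.05. FOS and EGR1 lie well below 0 and SLC7A11 above it, and most of the 76 genes that fell lie in a band just below 0 at high levels. The axis leaves out 7 genes beyond it, none of which passed.

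The size of the list rested on the controls. Without control replicate 1 it shrank to 6 genes and without control replicate 2 to 4, while without control replicate 3 it grew to 154, 74 higher and 80 lower. Of the 87 genes, 5, 3 and 63 were kept in those fits, and all 87 kept their sign in each. Leaving out a compound library gave between 42 and 217 genes: 42 without PFOA replicate 3, 48 without 8:2 FTS replicate 1, 49 without PFDA replicate 1, 51 without 8:2 FTOH replicate 2, 53 without PFOS replicate 1 and 217 without PFDS replicate 3. EGR1, FOS and SLC7A11 passed in all 21 fits that left out 1 library. PLK2 and the small nuclear RNA gene RNVU1-25, named after its values were seen, passed in 20. With all libraries thinned to the smallest total, 51 genes passed, 46 of them among the 87. In bulk RNA, fewer cells of a kind and less RNA per cell cannot be told apart.

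**Figure D2:**
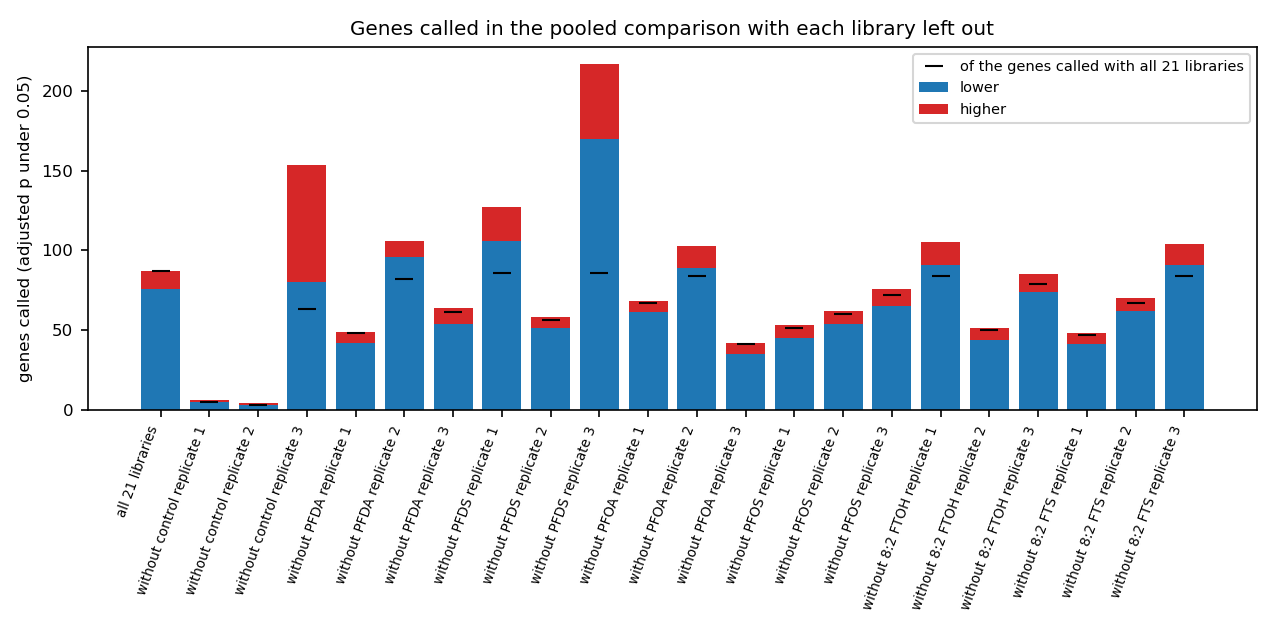
Bars give the genes that passed an adjusted p of 0.05 in the pooled comparison, lower in blue and higher in red, with all 21 libraries and with each library left out; dashes mark how many belong to the 87. The bars without control replicates 1 and 2 stand at 6 and 4, and the bar without PFDS replicate 3 at 217.

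EGR1 and FOS, a zinc finger factor and an AP-1 subunit that relay growth and activity signals to later genes, had the 2 lowest p-values of all genes. Their promoters are shown because both genes belong to the same rapidly induced class and fell together. Each window is the 250 bases before the RefSeq start on the gene's own strand (GRCh38.p14), for EGR1 chr5:138465229-138465478 on the plus strand and for FOS chr14:75278578-75278827 on the plus strand. Capitals mark CArG boxes, the binding motif of serum response factor, in EGR1 and the TATAAA element in FOS.
EGR1: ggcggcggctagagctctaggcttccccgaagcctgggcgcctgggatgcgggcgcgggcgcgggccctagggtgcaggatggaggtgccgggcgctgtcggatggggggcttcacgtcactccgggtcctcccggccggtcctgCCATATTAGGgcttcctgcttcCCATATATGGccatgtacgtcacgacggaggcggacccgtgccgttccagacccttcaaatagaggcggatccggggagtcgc
FOS: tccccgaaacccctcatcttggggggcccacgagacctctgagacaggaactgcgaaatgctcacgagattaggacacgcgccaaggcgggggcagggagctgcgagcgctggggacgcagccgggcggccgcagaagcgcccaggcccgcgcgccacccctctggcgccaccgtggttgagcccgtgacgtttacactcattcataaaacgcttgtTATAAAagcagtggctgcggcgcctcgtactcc
The EGR1 window holds 2 CArG boxes, at -105 to -96 and -83 to -74 from the start, and the FOS window holds none and has TATAAA at -33 to -28. Bases further upstream than 250 were not searched, so this does not show that FOS lacks a CArG box. CArG boxes were searched on both strands and occur in 407 of 35116 promoter windows of this length (1.16%). TATAAA was searched on the gene strand alone and occurs in 2389 (6.8%). Of the 62 genes that passed and have a window in the RefSeq table, 2 hold a CArG box (EGR1 and DNM3OS) and 6 hold TATAAA. No windows are given for SLC7A11, SQLE, VEGFA and PDIA3. A match describes letters only.

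EGR1 (ENSG00000120738, chr5:138465479-138469303) measured 45.7, 33 and 28.7 CPM in control replicates 1 to 3. In the 18 compound libraries its lowest, median and highest levels were 10.2, 16.2 and 26.8 CPM, so every compound library lay below every control, although the controls themselves were spread. The pooled comparison gave a log2 fold change of -1.15 (SE 0.10, 95% interval -1.36 to -0.94, adjusted p = 1.38e-09), or 2.22-fold lower. By compound the mean level was 12.6 ± 3.47 CPM in PFOS (SD, n = 3, as for the others), 14.6 ± 0.59 in 8:2 FTS, 15.4 ± 1.73 in PFOA, 15.6 ± 1.72 in PFDA, 17.5 ± 1.53 in PFDS and 23.3 ± 2.97 in 8:2 FTOH, against 35.8 ± 8.82 in control. EGR1 passed for 5 compounds alone, and for 8:2 FTOH its adjusted p was 0.092. Without control replicate 1, its highest control, the pooled log2 fold change was -0.93 (adjusted p = 7.44e-06).

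FOS (ENSG00000170345, chr14:75278826-75282230) measured 8.57, 7.08 and 6.85 CPM in the controls, and the lowest, median and highest of the compound libraries were 1, 2.3 and 5.69 CPM. Again no compound library reached the controls, and the nearest was PFDS replicate 2. FOS fell with a log2 fold change of -1.71 (SE 0.18, 95% interval -2.07 to -1.34, adjusted p = 4.91e-08), 3.27-fold lower. Its mean was 1.38 ± 0.486 CPM in PFOS and 1.56 ± 0.315 in 8:2 FTS, 2.2 ± 0.467 in PFOA, 2.67 ± 0.562 in 8:2 FTOH, 2.71 ± 1.05 in PFDA and 4.45 ± 1.15 in PFDS (SD, n = 3), against 7.5 ± 0.934 in control. It passed for all compounds alone but PFDS (adjusted p = 0.579).

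PLK2, a polo-like kinase induced by neuronal activity, was the other immediate early gene that passed. Control levels were 45, 48.6 and 41 CPM and compound levels 25.5, 30.6 and 42.3 CPM (lowest, median, highest). Of the 18 compound libraries 17 lay below all controls, PFDS replicate 3 being the exception. PLK2 fell with a log2 fold change of -0.52 (SE 0.08, 95% interval -0.69 to -0.36, adjusted p = 0.000448), at similar sizes in all compounds (-0.42 in PFDS to -0.62 in 8:2 FTS), but not without control replicate 2 (adjusted p = 0.108). Of 25 immediate early genes tested, these 3 fell and none rose; 19 had a negative and 6 a positive fold change, with a median log2 of -0.21 against 0.00 over all genes tested. DESeq2 called 4 of the 25. FOSB (-1.08, adjusted p = 0.238), EGR3 (-0.63, 0.435), FOSL2 (-0.34, 0.198) and KLF6 (-0.29, 0.0603) were negative without passing. JUN (-0.09), EGR2 (-0.02) and the phosphatase gene DUSP1 (0.00) lay near 0, and NR4A1, a nuclear receptor of the same class, was positive (0.37, adjusted p = 0.179). Among 19 feedback genes and targets of the ERK pathway, which drives many immediate early genes, edgeR called 0, with 6 negative and 0 positive at an unadjusted p under 0.05, and DESeq2 called 1. The growth factor antagonist gene SPRY4 came nearest (-0.28, adjusted p = 0.0529).

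SLC7A11 (ENSG00000151012, chr4:138164097-138242349) had the largest rise among the 4 protein-coding genes that rose. It measured 4.31, 6.66 and 7.9 CPM in controls and 8.88, 11.3 and 18.9 CPM in the compound libraries (lowest, median, highest), so that all 18 lay above all 3 controls. SLC7A11 rose with a log2 fold change of 0.92 (SE 0.13, 95% interval 0.66 to 1.19, adjusted p = 8.93e-05), 1.9-fold higher. Its mean was lowest in PFOA, 9.37 ± 0.589 CPM, and highest in 8:2 FTOH, 17.5 ± 2.13 CPM (SD, n = 3), against 6.29 ± 1.82 in control, and it passed alone for PFOS, 8:2 FTS and 8:2 FTOH. Without control replicate 1, its lowest control, the log2 fold change was 0.72 (adjusted p = 0.0317). Its exons share bases with the antisense gene SLC7A11-AS1, and since the counting ignored strand, reads over the shared bases were counted for neither gene.

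**Figure D3:**
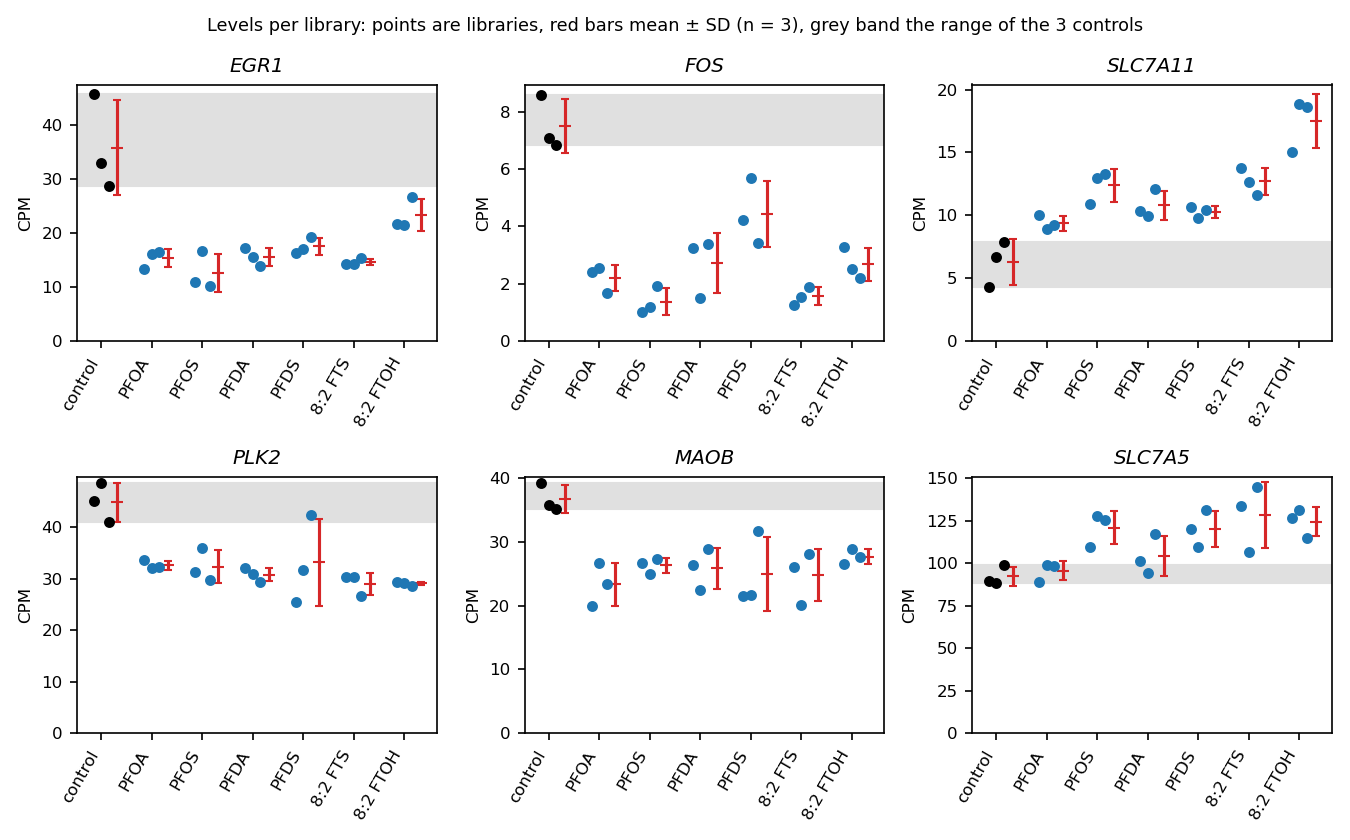
Levels in CPM of 6 genes per library: black points are controls, blue points compound libraries by compound, red bars mean ± SD (n = 3), and the grey band is the range of the 3 controls; all axes start at 0. For EGR1, FOS and MAOB all 18 compound points lie below the band and for SLC7A11 above it, while PLK2 and SLC7A5 overlap it in part.

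The rest of the cystine and glutathione list did not follow SLC7A11. Of 29 genes tested, 1 rose and 2 fell, with a median log2 of -0.04 (0.01 by library size alone). PGD, which makes NADPH in the pentose phosphate pathway, fell from 229 ± 22.7 CPM in controls (SD, n = 3) to a mean of 187 CPM, a log2 fold change of -0.29 (SE 0.06, 95% interval -0.40 to -0.17, adjusted p = 0.0107). GPX4, the glutathione peroxidase that repairs lipid peroxides, fell from 96.7 ± 9.14 to 79.5 CPM, a log2 fold change of -0.29 (SE 0.07, 95% interval -0.43 to -0.15, adjusted p = 0.0499). Both lost their call without control replicate 1 (adjusted p = 0.167 and 0.293) and replicate 2 (0.434 and 0.692). SLC3A2, the heavy chain that pairs with SLC7A11, had 0.17 (adjusted p = 0.277).

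SLC7A5, the light chain of the large neutral amino acid transporter and a target of the stress factor ATF4, was the only 1 of 28 genes of the ATF4 list to rise. SLC7A11, VEGFA and NIBAN1 also rose but are not on this list, so the count depends on how the list was drawn. Controls measured 89.4, 88.6 and 98.9 CPM and compound libraries 89.2, 116 and 145 CPM, with 15 of 18 above all controls. SLC7A5 rose with a log2 fold change of 0.32 (SE 0.07, 95% interval 0.17 to 0.46, adjusted p = 0.0301); PFOA, at 0.05, was the smallest and 8:2 FTS, at 0.48, the largest. The list had 21 positive and 7 negative members and a median of 0.14, with 9 positive and 0 negative at an unadjusted p under 0.05, and DESeq2 called 2. STC2, a secreted glycoprotein gene (0.47, adjusted p = 0.124), and ASNS, asparagine synthetase (0.34, 0.166), were positive without passing, while ATF4 itself (-0.02) and DDIT3 (0.19, adjusted p = 0.745) gave no call. Without control replicate 3 this list had 4 calls, and without replicate 1 or 2 it had 0. For the 17 serine and one-carbon enzymes edgeR called 0, with 6 positive and 0 negative at an unadjusted p under 0.05, and DESeq2 called 0; the median was 0.12. PHGDH and MTHFD2 came nearest (0.23, adjusted p = 0.151, and 0.25, 0.176). Without control replicate 3 edgeR called 2 of them.

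VEGFA, the vascular growth factor induced by low oxygen and by ATF4, measured 93.4, 109 and 111 CPM in controls and 111, 128 and 146 CPM in compound libraries. Of the 18, 17 lay above all controls, and VEGFA rose with a log2 fold change of 0.29 (SE 0.06, 95% interval 0.17 to 0.42, adjusted p = 0.017). It was 1 of 31 genes of glycolysis and the hypoxia response to pass; 25 of the 31 were positive and the median was 0.05. NIBAN1, a stress-induced regulator of translation, rose from 9.96 ± 1.81 CPM (SD, n = 3) to a mean of 14.8, a log2 fold change of 0.57 (SE 0.14, 95% interval 0.30 to 0.84, adjusted p = 0.044), with 16 of 18 libraries above all controls. SLC7A5, VEGFA and NIBAN1 lost their calls without control replicate 1 (adjusted p = 0.235 to 0.362) and replicate 2 (0.165 to 0.49).

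The other 7 rises were of RNAs not known to encode protein or of unnamed genes, picked out here with their values known. MIR137HG, the host transcript of the neuronal microRNA miR-137, rose from 300.3 ± 20.8 CPM (SD, n = 3) to 373, with a log2 fold change of 0.31 (SE 0.06, 95% interval 0.19 to 0.43, adjusted p = 0.01). DBH-AS1, antisense to the gene of dopamine beta-hydroxylase, rose from 24 ± 0.241 to 33.5 CPM, with a log2 fold change of 0.48 (SE 0.10, 95% interval 0.27 to 0.68, adjusted p = 0.0268), and all 18 compound libraries lay above the controls. It shares exon bases with DBH and MIR137HG shares them with DPYD, and reads over those bases were not counted for either gene. DNM3OS, the transcript that carries the microRNAs miR-199a and miR-214, rose from 27.9 ± 2.33 to 36.9 CPM (0.39, edgeR's adjusted p = 0.0292). Its span overlaps that of DNM3 without shared exon bases. Since counting ignored strand, any DNM3 reads over its exons were counted for DNM3OS, and their part in the rise was not tested. The same limit holds for the unshared exons of DBH-AS1 and MIR137HG. LINC01089 rose from 8.34 ± 1.43 to 12.2 CPM (0.54, 0.0397) and shares exon bases with 3 tested genes, RHOF among them. The rest, MRPS17P1, ENSG00000232821 and ENSG00000290960, had edgeR's adjusted p-values from 0.0278 to 0.0491. ENSG00000232821 shares exon bases with TWIST1. MRPS17P1 and ENSG00000290960 were near the floor. Their controls measured 0.18, 0.25 and 0.38 CPM and 0.49, 0.80 and 0.62 CPM, and the medians of their compound libraries were 0.97 and 1.45 CPM. None of the 7 passed without control replicate 1 (adjusted p = 0.0715 to 0.319) or replicate 2 (0.294 to 0.569).

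Of 24 genes of cholesterol synthesis and uptake tested, 5 fell and 0 rose; 23 had a negative fold change, 22 of them in all 6 compounds, and the median log2 was -0.23; by compound the medians ran from -0.14 in PFOA to -0.34 in 8:2 FTS. DESeq2 called 6. SQLE, the squalene epoxidase that commits carbon to sterols, measured 231, 249.9 and 236 CPM in controls and 178, 193 and 220.2 CPM in compound libraries, and all 18 lay below all controls. SQLE fell with a log2 fold change of -0.29 (SE 0.06, 95% interval -0.40 to -0.18, adjusted p = 0.00978). NSDHL, which takes part in removing methyl groups from the sterol ring, measured 46.5, 44.4 and 40.6 CPM in controls and 23.1, 34 and 38.4 CPM in compound libraries, again with no overlap, and fell with a log2 fold change of -0.40 (SE 0.08, 95% interval -0.56 to -0.24, adjusted p = 0.0127). ACAT2, which joins acetyl units at the start of the pathway, fell from 103 ± 11.3 to 81.9 CPM (-0.33, adjusted p = 0.0343); it shares exon bases with SOD2 and TCP1. INSIG1, the sterol-regulated anchor of the SREBP complex, fell from 161 ± 7.78 to 132 CPM (-0.28, 0.0397) and SC5D, a late desaturase, from 129 ± 4.22 to 109.7 CPM (-0.24, 0.0408).

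Among members that did not pass, MSMO1 (-0.28, adjusted p = 0.0892) and IDI1 (-0.24, 0.097) had values of the same sign. SREBF2, which encodes the pathway's regulator, had -0.03 (adjusted p = 0.938). ERG28, a scaffold for sterol demethylation, and TMEM97, a regulator of cholesterol trafficking, were not on the list and were picked with their values known. ERG28 fell from 39 ± 2.45 to 29.5 CPM (-0.41, adjusted p = 0.00978) and TMEM97 from 138 ± 10.1 to 113 CPM (-0.30, 0.0292). The 5 list members lost their calls without control replicate 1 (adjusted p = 0.055 to 0.299) or replicate 2 (0.309 to 0.57), 3 passed without replicate 3, and 12 of the 24 passed without PFDS replicate 3. Fatty acid synthesis and desaturation genes gave 0 calls among 19 with edgeR, 9 negative and 2 positive at an unadjusted p under 0.05, and 2 calls with DESeq2; their median was -0.12, and ELOVL5 (-0.20, adjusted p = 0.1) came nearest. For 27 PPAR targets and fatty acid oxidation genes, the receptor family most often tied to PFAS in liver, edgeR and DESeq2 each called 0, with 1 gene at an unadjusted p under 0.05 and a median of -0.03 (0.02 by library size alone).

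Of 22 cytosolic chaperone and heat shock genes tested, 5 fell and 0 rose, 19 were negative, and the median log2 was -0.17; DESeq2 called 7. The promoter shown is that of HSPA8, which encodes the constitutive HSP70 chaperone (chr11:123062137-123062386, minus strand, GRCh38.p14, RefSeq). It was chosen because, among members that passed and have a window, it is the 1 with exact matches to the heat shock element forms searched. Capitals mark the 2 elements, GAANNTTCNNGAA at -230 to -218 and TTCNNGAANNTTC at -55 to -43.
HSPA8: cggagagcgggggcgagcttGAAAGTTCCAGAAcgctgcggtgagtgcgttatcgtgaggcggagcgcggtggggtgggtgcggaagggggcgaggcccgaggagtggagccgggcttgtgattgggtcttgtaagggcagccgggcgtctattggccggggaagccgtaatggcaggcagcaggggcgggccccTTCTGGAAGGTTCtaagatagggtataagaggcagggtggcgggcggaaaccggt
Both forms were searched on both strands and together occur in 155 of 35116 windows (0.441%). Of the 62 genes that passed and have a window, HSPA8 and MRPL51 hold an exact match. Elements that depart from these letters, and bases further upstream than the window, were not searched. The search therefore does not show that other members, HSPA1B among them, lack a heat shock element. HSPA8 measured 1294, 1493 and 1202 CPM in controls and 888, 1047 and 1397 CPM in compound libraries, 16 of which lay below all controls, and fell with a log2 fold change of -0.32 (SE 0.07, 95% interval -0.47 to -0.17, adjusted p = 0.044). HSP90AA1, the inducible HSP90, fell from 1628 ± 147 to 1349 CPM (-0.27, adjusted p = 0.0292) and its activator AHSA1 from 108 ± 6.07 to 90 CPM (-0.27, 0.0279). DNAJA1, an HSP40 partner, fell from 287 ± 19.9 to 239 CPM (-0.26, 0.0343), with all 18 libraries below the controls. HSPA1B, at 27.4 ± 0.596 and 21.4 CPM (-0.37, 0.0405), is uncertain because its copy HSPA1A is nearly identical and reads that map to both were not counted; HSPA1A had -0.21 (adjusted p = 0.418). HSP90AA1, AHSA1 and HSPA8 share exon bases with other tested genes. All 5 lost their calls without control replicate 1 (adjusted p = 0.0706 to 0.232) or replicate 2 (0.448 to 0.724), and 1 passed with scaling by library size alone.

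In the endoplasmic reticulum, 2 of 24 chaperone and unfolded protein response genes fell, 20 were negative and the median was -0.12. MANF, a secreted factor induced by ER stress, measured 78.3, 74.1 and 59.1 CPM in controls and 37.7, 50.9 and 62.7 CPM in compound libraries, 17 of which lay below all controls, and fell with a log2 fold change of -0.47 (SE 0.09, 95% interval -0.65 to -0.30, adjusted p = 0.00978). PDIA3, a disulfide isomerase of glycoprotein folding, measured 269.7, 282 and 265 CPM in controls and 194, 216 and 258 CPM in compound libraries with no overlap and fell with a log2 fold change of -0.30 (SE 0.06, 95% interval -0.43 to -0.18, adjusted p = 0.0117); it shares exon bases with ELL3 and CATSPER2P1. Neither passed without control replicate 1 (adjusted p = 0.121 to 0.204) or replicate 2 (0.306 to 0.332).

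Of 37 genes of the neuronal cytoskeleton and of neurite growth tested, 4 fell and 0 rose, 35 were negative, 28 of them in all 6 compounds, and the median was -0.15; DESeq2 called 6. GAP43, the growth cone protein of extending axons, measured 304, 302 and 293 CPM in controls and 199.9, 238 and 282 CPM in compound libraries, with all 18 below all controls, and fell with a log2 fold change of -0.34 (SE 0.06, 95% interval -0.47 to -0.21, adjusted p = 0.00978). DPYSL3, a semaphorin signalling protein of growth cones, measured 819, 836 and 796 CPM in controls and 575, 675 and 779 CPM in compound libraries, also with no overlap, and fell with a log2 fold change of -0.29 (SE 0.06, 95% interval -0.41 to -0.16, adjusted p = 0.0268). MAP1B, the main microtubule-associated protein of young axons and the most abundant gene to pass, measured 5524, 5334 and 5355 CPM in controls and 3789, 4449 and 5432 CPM in compound libraries, with 17 of 18 below all controls, and fell with a log2 fold change of -0.29 (SE 0.07, 95% interval -0.43 to -0.15, adjusted p = 0.0397). NEFM, the medium neurofilament, fell from 186 ± 11.8 to 138 CPM (-0.43, adjusted p = 0.0457); PFDA replicate 2 lay above all controls and the other 17 below.

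The other members of this list did not pass. BASP1 (-0.22, adjusted p = 0.0697), INA (-0.20, 0.126) and TUBA1A (-0.20, 0.22) did not pass, and TUBB3 (0.05) and KIF1A (0.00) lay near 0. GAP43 and NEFM are also 2 of the 12 neuronal markers. The summed level of the neuronal markers, 4476 to 5325 CPM in compound libraries and 5139 to 5464 in controls, overlapped between the sides. Of the 12 markers 10 were negative, 9 of them in all 6 compounds, with a median of -0.16, and their part in the values of the cytoskeletal list was not tested. GAP43, DPYSL3, MAP1B and NEFM lost their calls without control replicate 1 (adjusted p = 0.126 to 0.276) or replicate 2 (0.203 to 0.367), and 2 of the list passed without replicate 3.

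Of genes for transmitter handling and excitability, MAOB, the mitochondrial amine oxidase that breaks down dopamine, stood out. Controls measured 39.2, 35.7 and 35.2 CPM and compound libraries 20, 26.4 and 31.6 CPM; all 18 lay below all controls, and MAOB fell with a log2 fold change of -0.52 (SE 0.09, 95% interval -0.70 to -0.34, adjusted p = 0.00363), from -0.40 in 8:2 FTOH to -0.65 in PFOA. It was 1 of 22 catecholamine and cholinergic genes to pass, and the list median was -0.01 (0.04 by library size alone). TBX3, a transcription factor of adrenergic neuroblastoma, fell from 204 ± 28.1 to 161 CPM (-0.34, adjusted p = 0.00978), alone among 19 such factors. ASIC2, an acid-sensing channel, was low, at 3.78, 3.27 and 2 CPM in controls and 0.169, 1.33 and 2.83 CPM in compound libraries, and fell with a log2 fold change of -1.2 (SE 0.29, 95% interval -1.78 to -0.62, adjusted p = 0.044). Without control replicate 1 the adjusted p of these 3 genes was 0.121 to 0.366, and without replicate 2 it was 0.0715 to 0.5.

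Matrix and signalling genes gave single falls. LAMA4, a laminin chain, fell from 51.5 ± 2.18 to 40.2 CPM (-0.36, adjusted p = 0.00978) and the matrix protein gene TNC from 111 ± 0.797 to 92.1 CPM (-0.26, 0.0387), both with all 18 libraries below the controls; they were 2 of 37 matrix and integrin genes, whose median was -0.01 (0.04 by library size alone). All 6 fibroblast markers were negative, with a median of -0.26, and their part in these falls was not tested. The activin subunit gene INHBA fell from 58.1 ± 2.18 to 45 CPM (-0.38, 0.0387), with the largest change in PFDS, -0.67. The fibroblast growth factor gene FGF1 fell from 57.5 ± 2.68 to 47.6 CPM (-0.28, 0.044), also most in PFDS, -0.49. TLL2, a protease related to BMP1, measured 12.7, 11.8 and 7.52 CPM in controls and 4.66, 6.63 and 8.58 CPM in compound libraries and fell with a log2 fold change of -0.68 (SE 0.14, 95% interval -0.95 to -0.41, adjusted p = 0.0114). ARSJ, a sulfatase, measured 18.7, 19.1 and 15 CPM in controls and 7.68, 13.2 and 14.9 CPM in compound libraries, all 18 below all controls, and fell with a log2 fold change of -0.51 (SE 0.11, 95% interval -0.73 to -0.29, adjusted p = 0.0179). CDH20, a cadherin, fell from 9.7 ± 1.87 to 6.58 CPM (-0.58, 0.0343). AGPAT1, which makes phosphatidic acid, was the only 1 of 33 sphingolipid and phospholipid enzymes to pass (69 ± 5.06 to 56.6 CPM, -0.29, 0.0429). None of these 8 genes passed without control replicate 1 (adjusted p = 0.129 to 0.343) or replicate 2 (0.104 to 0.683).

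The other 4 genes complete the 12 largest falls among protein-coding genes. NIM1K, a kinase of the AMPK-related family, measured 2.27, 2.14 and 2.24 CPM in controls and 0.307, 0.824 and 1.55 CPM in compound libraries, with no overlap, and fell with a log2 fold change of -1.39 (SE 0.27, 95% interval -1.93 to -0.84, adjusted p = 0.01). SVOPL, a transporter-like gene, measured 3.46, 2.43 and 2.57 CPM in controls and 0.45, 1.31 and 2.31 CPM in compound libraries, with no overlap, and fell with a log2 fold change of -1.09 (SE 0.26, 95% interval -1.62 to -0.56, adjusted p = 0.044). Both are genes of low level. TCEAL5 fell from 15.7 ± 0.459 to 11.3 CPM (-0.49, adjusted p = 0.0292) and the histone gene H4C13 from 139 ± 21.7 to 97.7 CPM (-0.51, 0.0301). H4C13 belongs to a family of near-identical copies, so its count is uncertain. None of the 4 passed without control replicate 1 (adjusted p = 0.126 to 0.366) or replicate 2 (0.196 to 0.408). In all, 45 of the 87 genes overlap another tested gene and 26 share exon bases with one.

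Several lists leaned one way without a call. All 13 protein-coding genes of the mitochondrial chromosome were negative, with a median of -0.27, yet edgeR and DESeq2 called 0 of them, with 4 at an unadjusted p under 0.05. Their medians ran from -0.05 in PFDS to -0.48 in 8:2 FTOH. Without control replicate 3 the pooled median was -0.22. That library had the highest share of counts on the mitochondrial chromosome. Its MT-CO2, MT-CYB and MT-ND6, at 6100, 3227 and 773 CPM, were no higher than in control replicate 2, at 6117, 3258 and 788 CPM. Of 43 cell cycle and replication genes 41 were negative, with a median of -0.10; edgeR called 0, with 15 negative and 0 positive at an unadjusted p under 0.05, and DESeq2 called 1. Of 56 cytosolic ribosomal protein genes 43 were negative, with a median of -0.08; edgeR and DESeq2 called 0, with 7 at an unadjusted p under 0.05. Of 34 synaptic vesicle genes 25 were negative (median -0.08); edgeR called 0, with 7 at an unadjusted p under 0.05, and DESeq2 called 1. Over all 24879 genes tested 12653 were positive and 12226 negative, and 2482 (9.98%) had an unadjusted p under 0.05. The 7 of 56 ribosomal protein genes lie near that share, and no list was tested against it. Inflammatory genes (14 tested), metallothioneins and xenobiotic response genes (17), autophagy genes (32) and nuclear-encoded respiratory chain genes (40) had no call with edgeR or DESeq2, with 0, 2, 2 and 5 genes at an unadjusted p under 0.05. Aminoacyl-tRNA synthetases (20 tested), p53 targets (23), apoptosis regulators (20), retinoic acid genes (16), neuropeptides and granins (13) and axon guidance genes (37) had no call with edgeR either, with 4, 1, 1, 3, 4 and 6 genes at an unadjusted p under 0.05, and DESeq2 called 2, 0, 1, 0, 0 and 1 of them. All lists share 1 scaling: by library size alone the median of all genes moved from 0.00 to 0.05, and the medians of lists within 0.05 of 0 changed sign in part.

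**Figure D4:**
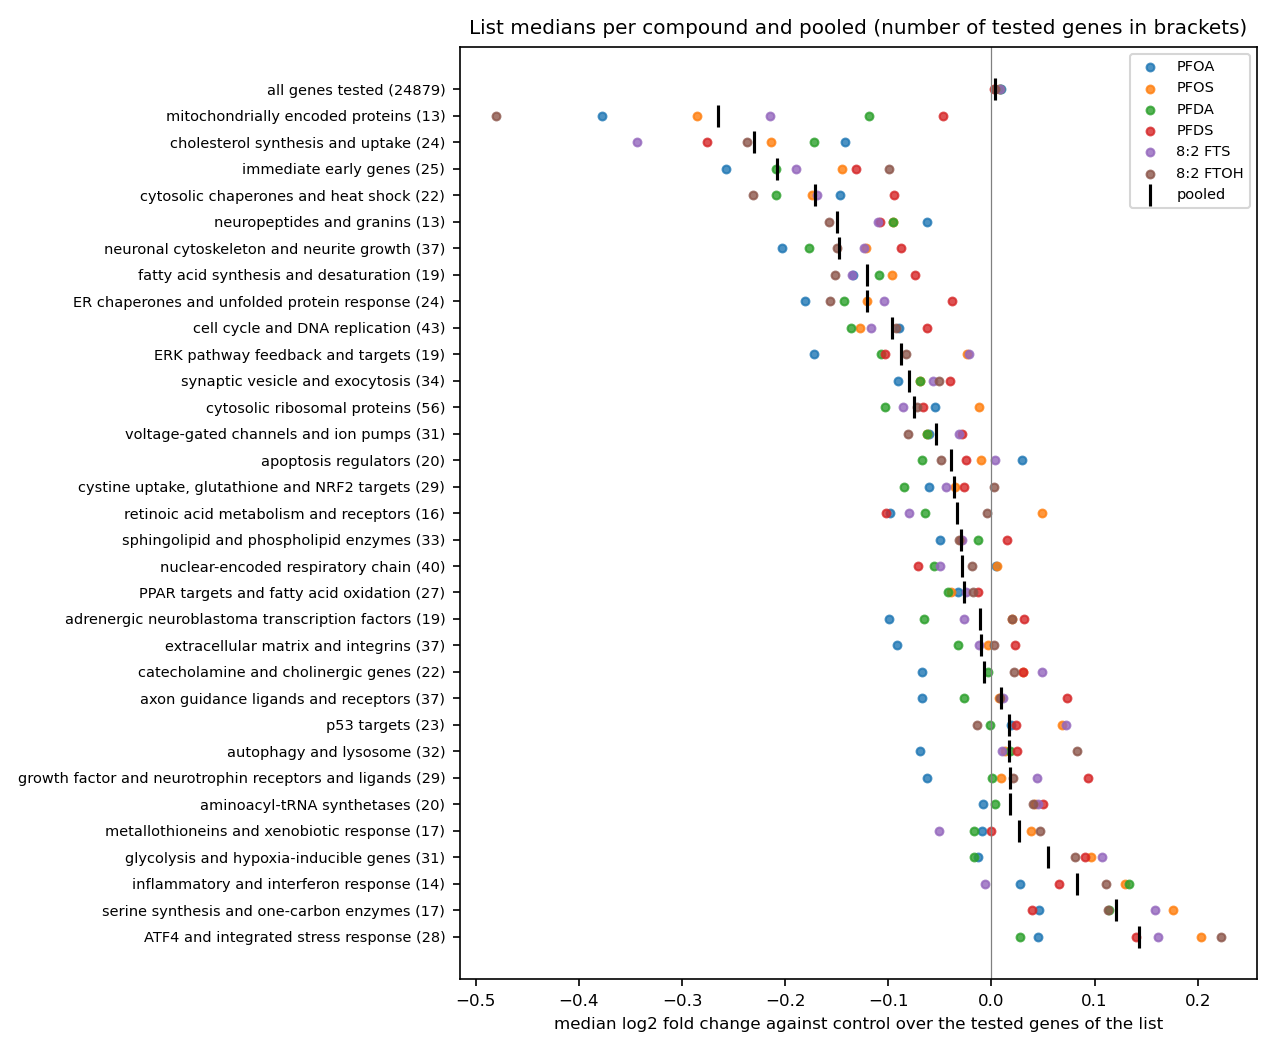
Median log2 fold change against control over the tested genes of each of 32 lists (number in brackets) and of all genes, as coloured points for the 6 compounds and a black bar for the pooled value. The mitochondrially encoded, cholesterol, immediate early and chaperone lists lie lowest, at -0.27 to -0.17, the ATF4 list highest at 0.14, and the all-gene row sits at 0.00.

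The pooled comparison held more calls than any single compound. Against the same 3 controls, 8:2 FTS alone gave 21 genes (0.0844%), PFOA 8 (0.0322%), 8:2 FTOH 8 (0.0322%), PFOS 6 (0.0241%), PFDS 6 (0.0241%) and PFDA 2 (0.00804%). Together they gave 38 genes (0.153%), of which 29 passed in the pooled comparison and 9 did not. Of the 87, 58 passed for no single compound, 24 for 1, 1 for 2 (PLK2), 2 for 3 (SLC7A11 and RNVU1-25) and 2 for 5 (EGR1 and FOS). The count of 38 also rested on single libraries: it was 11, 4 and 182 without control replicates 1, 2 and 3, 23 without PFOA replicate 3 and 65 without PFOA replicate 2, 19 without 8:2 FTS replicate 1, 60 without PFDA replicate 2, and 71 and 167 without PFDS replicates 1 and 3.

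Within the 87 genes the compounds gave changes of like size, a comparison in which the choice of genes used all of them. The median size of the log2 fold change was 0.39 in 8:2 FTOH, 0.38 in 8:2 FTS, 0.36 in PFOA, 0.35 in PFDA, 0.34 in PFOS and 0.31 in PFDS. The largest change of a gene lay in 8:2 FTOH for 23 genes and in 8:2 FTS for 21, and the smallest lay in PFDS for 31. These are descriptions, since the genes were selected on the mean of the same values.

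**Figure D5:**
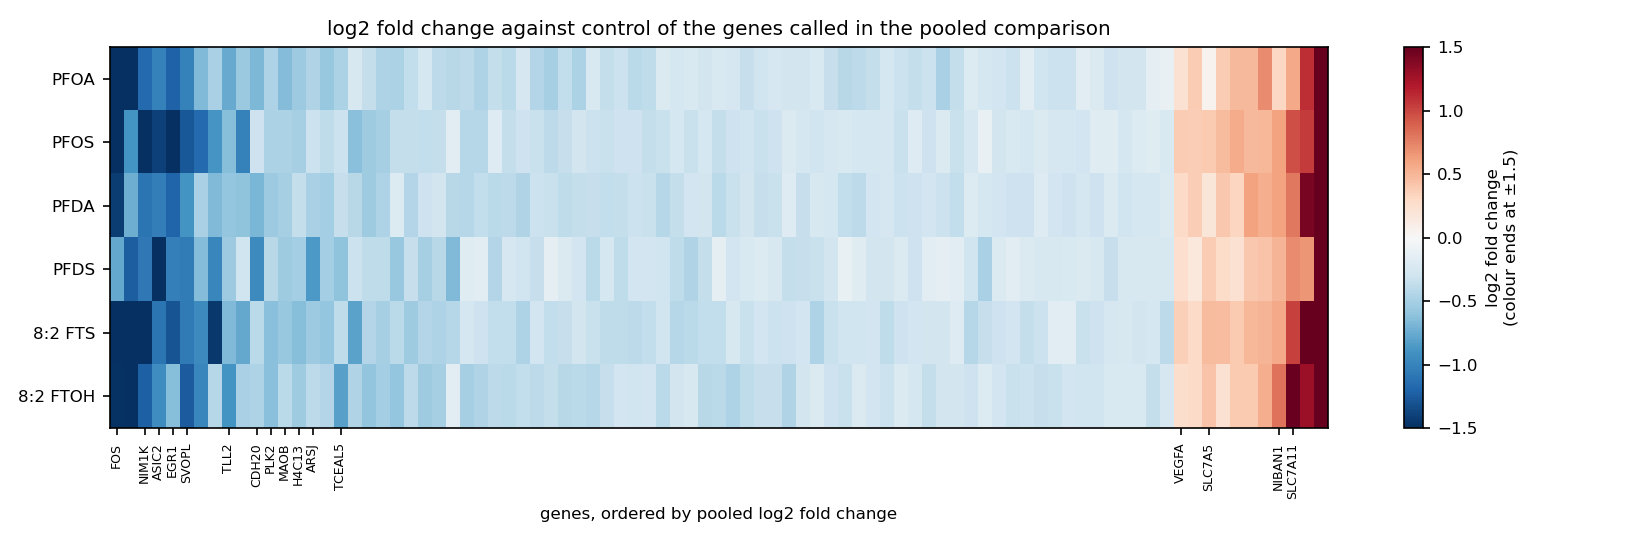
Colour gives the log2 fold change against control of each of the 87 genes (across, ordered by pooled value) in each compound (rows), with names for the largest protein-coding rises and falls and colours ending at ±1.5. Every column has 1 colour family in all 6 rows; the FOS column is palest in PFDS (-0.77) and the EGR1 column in 8:2 FTOH (-0.63).

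Differences among the compounds were tested at the same dose and time, in contrasts that leave out the control group. The control libraries still entered the filter, the scaling and the estimate of spread. For the hypothesis of no difference among the 6, edgeR's quasi-likelihood test called 0 of 24879 genes (0%), with 1040 (4.18%) at an unadjusted p under 0.05, while DESeq2 called 28. All 15 pairs of compounds were compared over all genes, 373185 tests adjusted together, and edgeR called 0 (0%) while DESeq2 called 32. At an unadjusted p under 0.05 a pair gave between 552 genes (2.22%, PFDA against PFOS) and 2140 (8.6%, PFDS against PFOA). A 95% interval reached 0.29 to 0.31 to either side on the log2 scale in the median gene at 1 CPM or more, so a call that misses the threshold leaves room for differences of that size and does not show that the compounds act alike.

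For the 3 most stable genes the pairs chosen for a named part of the structure were as follows, as log2 differences with 95% intervals. A longer chain on the carboxylic acid (PFDA minus PFOA) gave 0.01 (-0.30 to 0.33) for EGR1, 0.38 (-0.22 to 0.97) for FOS and 0.21 (-0.11 to 0.54) for SLC7A11. A longer chain on the sulfonic acid (PFDS minus PFOS) gave 0.50 (0.19 to 0.82), 1.72 (1.11 to 2.33) and -0.26 (-0.59 to 0.07). The adjusted p of this FOS difference was 0.14, among the lowest of all 373185 tests, and it was picked out for its size. A sulfonic against a carboxylic acid gave, for PFOS minus PFOA, -0.31 (-0.63 to 0.01), -0.70 (-1.35 to -0.05) and 0.39 (0.06 to 0.72). For PFDS minus PFDA it gave 0.18 (-0.13 to 0.49), 0.65 (0.09 to 1.2) and -0.08 (-0.40 to 0.25). Neither pair differs by the acid group alone. The fluorotelomer alcohol against the fluorotelomer sulfonic acid (8:2 FTOH minus 8:2 FTS) gave 0.66 (0.34 to 0.98), 0.82 (0.17 to 1.47) and 0.46 (0.14 to 0.78). Of the 15 differences, adjusted over all genes and pairs, none passed. Set beside these 3 genes, PLK2 differed less: its 15 pairs lay between -0.21 and 0.13.

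The 8 protein-coding genes with the smallest p for a difference among compounds were FOS, GPX3, EGR1, SLC7A11, UCHL1, DYNC1I1, CORIN and PSMD11, with adjusted p-values from 0.0876 upward, and are given as a description. EGR1 and SLC7A11 were both higher in 8:2 FTOH than in the other compounds, with the widest gaps to PFOS for EGR1, 0.89 (0.58 to 1.21), and to PFOA for SLC7A11, 0.91 (0.58 to 1.24). GPX3, a secreted glutathione peroxidase, was also higher in 8:2 FTOH than in PFOS, by 0.81 (0.50 to 1.11). UCHL1, an abundant neuronal ubiquitin hydrolase, was higher in 8:2 FTOH than in PFDA by 0.44 (0.28 to 0.59), DYNC1I1, a dynein intermediate chain, than in PFOA by 1.18 (0.72 to 1.64), and PSMD11, a proteasome lid subunit, than in PFOA by 0.36 (0.21 to 0.52). CORIN, a membrane protease, was lower in PFDS than in PFDA, with a difference of -0.65 (-0.92 to -0.37).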

How the data were processed

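RNA after removal of ribosomal RNA was sequenced from 21 libraries. Per the submitters' processing notes, the authors used FastQC, MultiQC, HISAT2, SAMtools, featureCounts and DESeq2, with build hg38. Counting used featureCounts 2.0.1 with no option for strand or read pairs, per the file headers, although the kit was stranded. Multi-mapping reads and those over several genes were left out. The deposited raw counts of 62656 genes, 99.97% of them with a name entry, were used, and the authors' normalized table was not used here.

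Genes were filtered with filterByExpr by group, scaled with TMM and fitted over 7 groups with edgeR 4.0.16 (quasi-likelihood, robust) in R 4.3.3; the biological coefficient of variation was 0.1124. The pooled contrast is the mean of the 6 compound coefficients minus control. Benjamini-Hochberg adjustment ran over all genes tested, and for the 15 pairs over genes and pairs, at 0.05. Levels are CPM from TMM-scaled library sizes. Libraries held 7680024 to 30429746 counts (median 14633793). For genes at 1 CPM or more the pooled 95% interval reached 0.22 (log2) to either side in the median gene, and 73.9% of intervals lay within a 1.5-fold change. Depth and mitochondrial share were compared by exact permutation with scipy 1.17.1. Figures used matplotlib 3.10.9. Scripts were checked on simulated counts.

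Named are the 12 largest rises and falls among protein-coding genes past 0.05 with 1 sign in all 6 compounds and at least 1 CPM on the higher side (only 4 rises qualified), from each list the 3 members of smallest adjusted p, list members that passed, and the 8 genes with the smallest p among compounds. Other list members and other genes given with values were named after their values were seen. The compounds pooled, the 32 lists and the rules were chosen with earlier results of these data known. Alternatives were DESeq2 size factors, library size alone, no filter, a stricter filter (mean of 1 CPM and 10 counts), DESeq2 1.42.0, a replicate block, 2 groups in place of 7, each library or compound left out, a minimum fold of 1.2, thinning to the smallest total, and removal of a gene length trend.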

Additional observations from a re-analysis of the deposited data

How the results depend on the processing

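The 87 genes of the pooled comparison became 54 with scaling by library size alone (38.9% of them higher against 12.6%), 286 without a filter on low counts, 196 with DESeq2's test (30.1% higher), 47 without PFDA, 251 without PFDS, 57 without 8:2 FTS, 3 when a 1.2-fold change was required and 51 after thinning. Leaving out 1 library gave 4 to 217. Without control replicate 3 and 8:2 FTOH replicate 3 together it was 163. With DESeq2 size factors, a stricter filter, 2 groups, removal of a length trend, or without PFOA, PFOS or 8:2 FTOH it was 84, 93, 69, 96, 69, 58 and 84. Same-numbered libraries deviated together little: 7 of 63 correlations lay above 0.1, the median was 0.00159 and the highest 0.241. Of the 18 such pairs with a control library, 4 lay above 0.1. With 3 libraries per group these values cannot tell whether the numbers pair samples. With a replicate block 67 genes were called, all among the 87.

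Differences among compounds, 0 genes, became 1 with library size alone, 75 without a filter, 28 with DESeq2, and 0 to 11 with 1 library left out. Pair differences, also 0, became 137 without a filter, 32 with DESeq2, and 0 to 11 with 1 library left out. Genes called for any compound, 38, became 358 without a filter, 241 with DESeq2 and 4 to 219 with libraries left out. The count of genes with 1 sign in all compounds, 8583, ran from 7979 to 10786 with libraries left out, and the 14 lists with a call ran from 2 to 21. Of the values of single genes under alternatives, 5679 kept their side of the threshold, 945 lost and 105 gained a call; of list medians 763 stayed within the spread and 5 moved. With library size alone the list medians nearest 0 changed sign, those of the cystine, PPAR, phospholipid, respiratory chain, apoptosis, catecholamine, adrenergic factor, retinoic acid and matrix lists; the values named above for single genes that passed did not. Depth limits the list too, since at the 7680024 counts of the shallowest library 46 of the 87 genes passed.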

Other observations

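Genes of the nucleus and nucleolus outside the lists above were also among the 76 that fell, and were named after their values were seen. PTMA, a small acidic histone-binding protein gene, measured 996 ± 93.5 CPM in controls (SD, n = 3) and a mean of 776 CPM over the compounds, with a log2 fold change of -0.36 (SE 0.07, 95% interval -0.50 to -0.22, adjusted p = 0.01). NCL, the nucleolar protein nucleolin of ribosome assembly, measured 465 ± 16 and 375 CPM, with a log2 fold change of -0.31 (SE 0.06, 95% interval -0.43 to -0.19, adjusted p = 0.0114). The histone genes H2BC7 (-0.47, edgeR's adjusted p = 0.0343) and H2BC9 (-0.34, 0.0181) belong to a multicopy family, so their counts are uncertain. RNVU1-25, a variant of the U1 small nuclear RNA of the spliceosome, measured 12.6, 15.4 and 11.8 CPM in controls and 5.48, 7.39 and 14.7 CPM in compound libraries (lowest, median, highest), 17 of 18 below all controls, with a log2 fold change of -0.82 (SE 0.14, 95% interval -1.09 to -0.54, adjusted p = 0.00208). Near-identical copies of it exist, and its count is uncertain in the same way. Without control replicate 1 the adjusted p of PTMA, NCL, H2BC7 and H2BC9 was 0.113 to 0.241, and without replicate 2 it was 0.332 to 0.444.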
